A study of Homo sapiens with 12 samples.

Results

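Immune checkpoint ligands are surface proteins through which a tumor cell restrains T cells, NK cells or macrophages, and IDO1 does so by an enzymatic route. The 8 genes described here are CD274, PDCD1LG2, CD276, VTCN1 and HHLA2 of the B7 family, TNFRSF14 of the TNF receptor family, CD47 and IDO1. They were taken by symbol, with no threshold on a measured value, and all 8 are among the 39368 symbols of the count tables. RNA was sequenced from HPV-negative head and neck squamous cell carcinoma (HNSCC) lines CAL27 and HSC3, each carrying a vector (tet-MUC1shRNA) that makes an shRNA against MUC1 when doxycycline (DOX) is added. There were 4 groups of 3 cultures, which were CAL27 cells with vehicle (0.10% DMSO), CAL27 cells with DOX at 500 ng/ml, HSC3 cells with vehicle and HSC3 cells with DOX at 500 ng/ml, all for 7 days. All groups carried the vector and were puromycin-selected, and no DOX-treated library with a control shRNA was analysed here, so loss of MUC1 cannot be told apart from anything else that DOX or the hairpin does. CAL27 cells were grown in DMEM and HSC3 cells in MEM, so line, medium and library preparation cannot be told apart either.

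PD-L1 (CD274) and PD-L2 (PDCD1LG2) bind PD-1 on activated T cells and dampen signaling from the T-cell receptor. IFN-γ released by T cells acts through IFNGR1, JAK2 and IRF1 to induce CD274 and IDO1, which is one way in which an inflamed tumor comes to resist immune attack. IDO1 degrades tryptophan to kynurenine, which starves T cells of the amino acid and activates the aryl hydrocarbon receptor, whereas CD47 engages SIRPα on macrophages as a "do not eat me" signal.

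MUC1 was lower with DOX in both lines, with counts of 8062, 5753 and 6589 falling to 306, 285 and 419 in CAL27 cells and of 191, 162 and 196 falling to 46, 36 and 16 in HSC3 cells. With vehicle it was already far lower in HSC3 than in CAL27 cells (log2 difference -4.98, SE 0.146, edgeR adjusted p = 1.7e-13). Library totals were 92866845 to 126328662 counts in CAL27 cells and 89730914 to 169065103 in HSC3 cells. Each RNA molecule was estimated to stand behind 2.45 to 3.33 counts in CAL27 cells, 4.18 to 7.43 in HSC3 cells with vehicle and 8.93 to 17.2 in HSC3 cells with DOX, so a low count in HSC3 cells is worth less than its size. The MUC1 counts of HSC3 cells with DOX are therefore few molecules. All 8 squamous epithelial markers were at a mean of 1 CPM or more in each group, and their summed level was 6370 to 6640 CPM falling to 3100 to 3330 in CAL27 cells and 6290 to 7090 falling to 2980 to 3570 in HSC3 cells. The 11 immune cell markers summed to at most 8.81 CPM in a library, with PTPRC (CD45) at no more than 12 counts, and the 6 stromal markers summed to at most 12.8 CPM. CPM are counts scaled to a common library size after TMM normalization across all 12 libraries. In bulk RNA, fewer cells with a transcript and less of it in each cell cannot be told apart.

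The upstream sequences of CD274 and VTCN1, picked with their DOX responses known, are shown as examples with and without IFN response motifs. They are the 250 bases before the RefSeq start (GRCh38.p14), 5′ to 3′ in the direction of the gene, at chr9:5450292-5450541 on the plus strand and at chr1:117210928-117211177 on the minus strand. Capitals mark matches to a GAS element (TTCNNNGAA) or to the core of an IFN-stimulated response element (ISRE; TTTC, any 2 bases, TTTC), searched on both strands.
CD274: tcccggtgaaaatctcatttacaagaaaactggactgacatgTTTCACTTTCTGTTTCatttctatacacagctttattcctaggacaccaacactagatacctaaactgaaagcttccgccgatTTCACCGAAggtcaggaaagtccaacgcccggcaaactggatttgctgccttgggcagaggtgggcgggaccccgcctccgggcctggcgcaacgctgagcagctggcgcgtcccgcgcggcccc
VTCN1: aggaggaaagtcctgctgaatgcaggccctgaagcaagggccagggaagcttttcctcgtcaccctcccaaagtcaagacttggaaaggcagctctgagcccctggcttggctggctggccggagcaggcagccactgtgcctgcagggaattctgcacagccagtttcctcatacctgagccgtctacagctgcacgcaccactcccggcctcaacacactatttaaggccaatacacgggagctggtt

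CD274 held 1 GAS match, at bases -125 to -117 from the start, and 2 overlapping ISRE core matches, at -208 to -199 and -202 to -193. The motif search covered 250 bases before and 50 bases after the start of each gene. Of 35116 promoter windows of that extent, 7.66% held the GAS letters and 3.57% the ISRE core. A promoter was matched for 6 of the 8 genes, and the windows of CD47, CD276, TNFRSF14, VTCN1 and HHLA2 held neither motif. PDCD1LG2 and IDO1 were not matched. A match is a description of these letters and was not tested as a binding site. Genes without a match both rose and fell with DOX, as described below, and a relation of matches to the response was not tested.

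The vehicle-treated lines carried different sets of ligands. HSC3 cells held far more of both PD-1 ligands, and CAL27 cells held IDO1, VTCN1 and more TNFRSF14. Of the 8 genes, all tested in the fit of 12 libraries, 4 were lower in HSC3 cells at an adjusted p under 0.05 (IDO1, VTCN1, TNFRSF14, CD47). In the other direction 2 were higher (CD274, PDCD1LG2), whereas the same fit called 32.3% of all genes lower and 30.6% higher. With a fold change over 2 as well, 3 were lower (all but CD47) and 2 higher, against 18.7% and 13.2%. IDO1 and VTCN1 had at most 6 counts in an HSC3 vehicle library. Of the vehicle groups only CAL27 cells carried them past the filter, so their calls add nothing to their presence there. The libraries of the lines did not overlap in 5 genes that were lower in HSC3 cells, HHLA2 included, and in 2 that were higher, against 40.1% and 34.2% of all genes. The median gene was lower by 0.118 on the log2 scale in HSC3 cells.

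**Figure D1:**
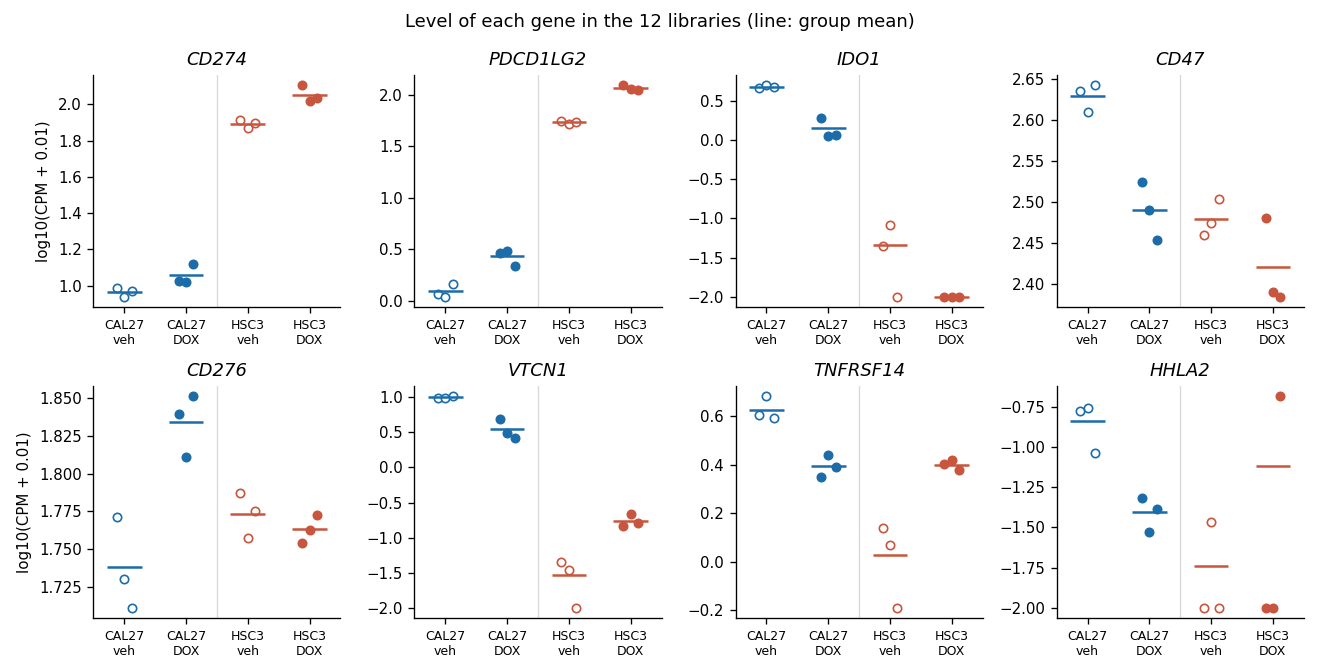
Level of each gene in each of the 12 libraries as log10(CPM + 0.01), with open points for vehicle, filled points for DOX and a line at each group mean. The vertical scale differs between panels. CD274 and PDCD1LG2 in HSC3 cells lie above every CAL27 library, and IDO1 and VTCN1 in HSC3 cells lie below every CAL27 library.

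CD274 (chromosome 9, plus strand) was at 9.75, 8.68 and 9.37 CPM in CAL27 cells and at 81.4, 73.6 and 79.2 CPM in HSC3 cells with vehicle, a log2 difference of 3.07 (SE 0.101, edgeR adjusted p = 5.8e-13). PDCD1LG2 was at 1.15, 1.08 and 1.44 CPM in CAL27 cells and at 55.0, 51.6 and 54.6 CPM in HSC3 cells, a log2 difference of 5.45 (SE 0.127, edgeR adjusted p = 1.4e-14). The lines did not overlap in either gene. The gap in PDCD1LG2 was thus 43.8-fold against 8.42-fold in CD274. A baseline gap was not particular to these genes on that stretch of chromosome 9. PLGRKT, JAK2, RIC1 and ERMP1, which start within 500 kb of CD274, were also higher in HSC3 cells. Their gaps were 5.47-fold, 3.24-fold, 1.91-fold and 1.16-fold (edgeR adjusted p = 3.1e-12, 6.4e-10, 6.2e-10 and 0.0027). They were looked up after the data had been seen, and a shared source was not tested.

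**Figure D2:**
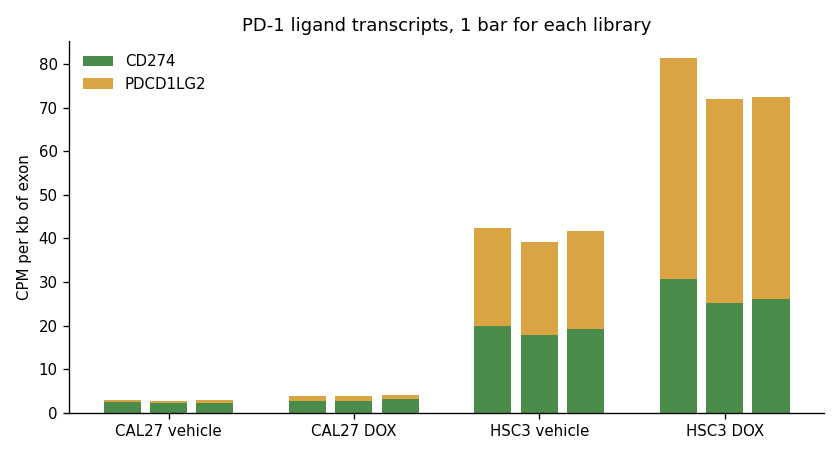
CD274 and PDCD1LG2 transcript levels in CPM per kb of exon, stacked, with 1 bar for each library. The summed level averaged 2.76 in CAL27 cells and 41.1 in HSC3 cells with vehicle, and 3.90 and 75.3 with DOX.

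Per kb of exon, which allows genes to be compared, CD274 was 4.54 ± 0.613 times the level of PDCD1LG2 in CAL27 cells with vehicle (SD, n = 3) and 0.860 ± 0.016 times in HSC3 cells (SD, n = 3). That order in HSC3 cells depends on the length used, because per kb of coding sequence CD274 was at 89.8 CPM and PDCD1LG2 at 65.6 CPM. CD47 was the highest of the 8 in both lines with vehicle, at 51.7 ± 2.08 CPM per kb of exon in CAL27 cells and 36.6 ± 1.93 in HSC3 cells (SD, n = 3), above 97.8% and 95.1% of the genes with counts. In CAL27 cells the order after CD47 was CD276, VTCN1, CD274, IDO1, TNFRSF14, PDCD1LG2 and HHLA2, from 9.98 down to 0.0381 CPM per kb, and no neighbours in that order overlapped between libraries. Per kb of coding sequence TNFRSF14 was above IDO1 there (4.99 against 3.94 CPM). In HSC3 cells it was PDCD1LG2, CD274 and CD276 from 22.1 to 10.8 CPM per kb, then TNFRSF14 at 0.170, followed by IDO1, VTCN1 and HHLA2 at 0.0103 or less, which overlapped one another.

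IDO1 was at 643, 538 and 567 counts in CAL27 cells with vehicle (4.66, 4.97 and 4.68 CPM) and at 4, 6 and 0 counts in HSC3 cells, about 1.4 molecules or fewer in any HSC3 library. VTCN1 (B7-H4, a ligand that restrains T-cell proliferation) was at 1352, 1078 and 1259 counts in CAL27 cells (9.80, 9.95 and 10.4 CPM) and at 4, 2 and 0 in HSC3 cells. Both were therefore present in one line and near the limit of detection in the other. Of the vehicle groups, only that of CAL27 cells held enough counts of these genes for the filter. The fitted differences follow from that, so no fold or p is given.

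TNFRSF14 (HVEM, the ligand of BTLA and CD160 and a receptor for the cytokine LIGHT) was at 4.01, 4.81 and 3.89 CPM in CAL27 cells and at 1.37, 1.16 and 0.637 CPM in HSC3 cells, lower by 2.01 on the log2 scale in HSC3 cells (log2 difference -2.01, SE 0.231, edgeR adjusted p = 1.4e-06). CD47 was at 432, 407 and 439 CPM in CAL27 cells and at 288, 298 and 319 CPM in HSC3 cells (log2 difference -0.50, SE 0.0807, edgeR adjusted p = 5.6e-05). CD276 (B7-H3) differed least of the 8 genes, at 59.0, 53.7 and 51.4 CPM against 61.2, 57.2 and 59.6 CPM. Its log2 difference was 0.12 (95% interval -0.0137 to 0.247, edgeR adjusted p = 0.11), which turned to -0.15 with an adjusted p of 0.031 when libraries were scaled by their totals alone. HHLA2 (B7-H7, which binds TMIGD2 and KIR3DL3) was at 22, 18 and 10 counts in CAL27 cells and at 0, 2 and 0 in HSC3 cells, where it was at the floor of 3 counts or below, and no fold is given.

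The question of the DOX arms is what happens to these genes when MUC1 is silenced. In CAL27 cells, 7 of the 8 passed the filter on low counts and all 7 were called, 4 lower (IDO1, VTCN1, TNFRSF14, CD47) and 3 higher (PDCD1LG2, CD274, CD276). Of all genes tested there, 21.8% were called lower and 22.6% higher. With a fold change over 2 as well, IDO1 and VTCN1 were lower and PDCD1LG2 was higher, against 5.11% and 1.31% of all genes. In HSC3 cells 6 passed the filter, of which 3 were called higher (PDCD1LG2, CD274, TNFRSF14) and 0 lower, against 13.0% and 15.4% of all genes. The 0 lower calls came from edgeR and from DESeq2 alike, and 1 gene, CD47, was lower at an unadjusted p under 0.05. With a fold change over 2, PDCD1LG2 and TNFRSF14 were higher there and 0 lower, against 1.58% and 4.4% of all genes. DOX and vehicle libraries did not overlap in 5 genes that were lower in CAL27 cells, HHLA2 included, and 3 that were higher (25.9% of all genes tested in each direction), and in 4 that were higher in HSC3 cells, VTCN1 included (20.2%). Over all genes tested, the median log2 fold changes of CAL27 and HSC3 cells were -0.0052 and -0.0097. Of the 8 squamous markers, 5 fell beside these changes in each line (KRT5, KRT14, KRT17, KRT6A and TP63), EPCAM rose, and CDH1 and SFN were not called, and their part in these changes was not tested.

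**Figure D3:**
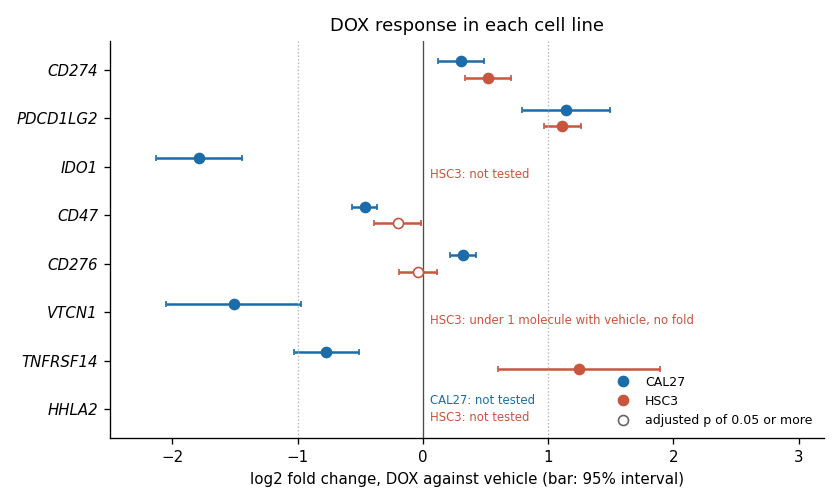
Log2 fold change with DOX for each gene in CAL27 cells and HSC3 cells, with bars of 95% intervals, filled points at an adjusted p under 0.05 and dotted lines at a fold change of 2. CD274 and PDCD1LG2 are to the right of 0 in both lines, and TNFRSF14 is on opposite sides. VTCN1 has no point for HSC3 cells, where its vehicle libraries held under 1 molecule.

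The PD-1 ligands rose in both lines. PDCD1LG2 went from 1.15, 1.08 and 1.44 to 2.92, 3.06 and 2.16 CPM in CAL27 cells (log2 fold change 1.14, SE 0.165, edgeR adjusted p = 9.8e-06) and from 55.0, 51.6 and 54.6 to 123, 114 and 112 CPM in HSC3 cells (log2 fold change 1.11, SE 0.0673, edgeR adjusted p = 9.3e-07). All DOX libraries were above all vehicle libraries in each line. Although the starting levels were far apart, the difference between the responses was -0.02 on the log2 scale (95% interval -0.361 to 0.317, edgeR adjusted p = 0.97).

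CD274 went from 9.75, 8.68 and 9.37 to 10.6, 10.5 and 13.2 CPM in CAL27 cells (log2 fold change 0.30, SE 0.0875, edgeR adjusted p = 0.0081) and from 81.4, 73.6 and 79.2 to 127, 104 and 108 CPM in HSC3 cells (log2 fold change 0.52, SE 0.0828, edgeR adjusted p = 0.00075). The groups did not overlap in either line, but the rise in CAL27 cells was small, and without vehicle replicate 2 it was 0.25 with an adjusted p of 0.072. Without the DOX library at 13.2 CPM it was 0.18 with an adjusted p of 0.047. The responses of the lines differed by 0.22 (95% interval -0.0614 to 0.509, edgeR adjusted p = 0.28). In each line the rise of CD274 was smaller than that of PDCD1LG2, and their ratio per kb of exon fell from 4.54 ± 0.613 to 2.60 ± 0.892 in CAL27 cells and from 0.860 ± 0.016 to 0.571 ± 0.0356 in HSC3 cells (SD, n = 3 each). The exact two-sided permutation p was 0.1 in each line, the smallest that 3 libraries against 3 can give. With DOX, PDCD1LG2 was the most abundant of the 8 genes per kb of exon in HSC3 cells, at 47.9 ± 2.33 against 32.0 ± 4.07 CPM per kb for CD47 (SD, n = 3), whereas per kb of coding sequence CD47 remained first.

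CD274 and PDCD1LG2 lie side by side on chromosome 9, at 5450503 to 5470566 and 5510531 to 5571282 (GRCh38, GENCODE v44, both on the plus strand). Of the 9 tested protein-coding genes starting within 500 kb of the start of CD274, 3 were called higher and 1 lower in CAL27 cells, and 3 higher and 2 lower in HSC3 cells. Of all genes tested, 22.6% were higher and 21.8% lower in the first line, and 13.0% and 15.4% in the second, so counts of this size are no result by themselves. The 3 that rose in each line were PDCD1LG2 and its nearest neighbours on either side of the pair, PLGRKT, which encodes a plasminogen receptor, and RIC1, which acts in Golgi transport. These neighbours were singled out after their values were seen.

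PLGRKT, which starts 12.6 kb before CD274, rose by 0.49 in CAL27 cells and 0.59 in HSC3 cells on the log2 scale (edgeR adjusted p = 0.00013 and 0.00053). RIC1, 179 kb beyond it, rose by 0.39 and 0.50 (edgeR adjusted p = 2.7e-07 and 0.00018). With CD274 and PDCD1LG2, these make 4 consecutive protein-coding genes that were called higher in both lines. ERMP1, an endoplasmic reticulum metallopeptidase gene 429 kb away, fell in CAL27 cells (log2 fold change -0.54, SE 0.0421, edgeR adjusted p = 2.3e-09) and more in HSC3 cells (log2 fold change -1.85, SE 0.0698, edgeR adjusted p = 6.5e-08). JAK2, the kinase of the IFN-γ receptor, starts 466 kb before CD274, and its log2 fold change was 0.02 in CAL27 cells (edgeR adjusted p = 0.82) and -0.51 in HSC3 cells (edgeR adjusted p = 0.0054).

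**Figure D4:**
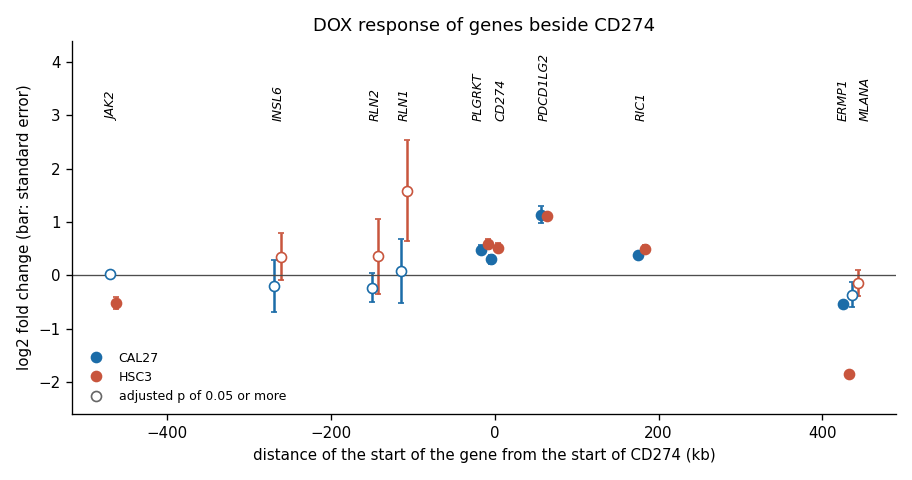
Log2 fold change with DOX of the tested genes around CD274 against the distance of their start from the start of CD274 in kb, with standard errors and filled points at an adjusted p under 0.05. PLGRKT, CD274, PDCD1LG2 and RIC1 are above 0 in both lines, and ERMP1 is below 0 in both.

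IDO1 fell in CAL27 cells, from 4.66, 4.97 and 4.68 CPM to 1.92, 1.12 and 1.14 CPM (counts of 201, 115 and 147 with DOX), a change of -1.79 on the log2 scale or 3.45-fold (SE 0.163, edgeR adjusted p = 7.1e-08). It was thus lower in every DOX library, while CD274, which IFN-γ also induces, was higher. In HSC3 cells IDO1 went from 4, 6 and 0 counts to 0 in each library, which is within the limit of detection, and no fold or test is given. An unlisted antisense lncRNA covers 3.44% of the IDO1 exons, and whether counting used strand is not stated in the sources used here.

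VTCN1 fell in CAL27 cells from 9.80, 9.95 and 10.4 to 4.97, 3.09 and 2.61 CPM (log2 fold change -1.51, SE 0.222, edgeR adjusted p = 0.0016). In HSC3 cells it went from 4, 2 and 0 counts to 20, 28 and 18 counts. The HSC3 groups did not overlap, but 28 counts there are about 3.1 molecules, 20 about 1.2 and 18 about 1.6, and the gene was not called. No fold is given, since VTCN1 passed the HSC3 filter only through its DOX libraries. The interaction was called in the fit of 12 libraries, which has a single estimate of the spread. It contains the HSC3 change for which no fold is given, so its size and p are not given either.

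TNFRSF14 moved in opposite directions. In CAL27 cells it fell from 4.01, 4.81 and 3.89 to 2.23, 2.76 and 2.46 CPM (log2 fold change -0.77, SE 0.124, edgeR adjusted p = 3.3e-05), and in HSC3 cells it rose from 1.37, 1.16 and 0.637 to 2.51, 2.61 and 2.37 CPM (log2 fold change 1.24, SE 0.291, edgeR adjusted p = 0.0082). No library of one treatment reached the range of the other in either line, and with DOX the levels in the lines overlapped. The interaction was 2.02 on the log2 scale (SE 0.317, edgeR adjusted p = 0.00030). A listed antisense gene, TNFRSF14-AS1, covers 13.3% of the TNFRSF14 exons. It had at most 10 counts in a CAL27 library and 0 in every HSC3 library, against 76 to 372 counts for TNFRSF14 in HSC3 cells.

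CD47 fell in CAL27 cells from 432, 407 and 439 to 334, 309 and 284 CPM (log2 fold change -0.46, SE 0.0488, edgeR adjusted p = 3.2e-07). In HSC3 cells it was at 288, 298 and 319 CPM with vehicle and at 302, 245 and 242 CPM with DOX, groups that overlapped through DOX replicate 1 (log2 change -0.20, 95% interval -0.388 to -0.0156, edgeR adjusted p = 0.10). Without that library, the one with the most counts per molecule (17.2), it was -0.31 with an adjusted p of 8.3e-05. A difference between the lines was not called (0.27, 95% interval 0.0221 to 0.508, edgeR adjusted p = 0.12).

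CD276 rose slightly in CAL27 cells, from 59.0, 53.7 and 51.4 to 69.1, 64.7 and 71.0 CPM (log2 fold change 0.32, SE 0.0493, edgeR adjusted p = 2.3e-05). In HSC3 cells it was at 61.2, 57.2 and 59.6 CPM with vehicle and 56.7, 57.9 and 59.2 CPM with DOX, so that the groups overlapped (log2 fold change -0.04, 95% interval -0.19 to 0.115, edgeR adjusted p = 0.75). The responses differed by -0.35 (SE 0.0862, edgeR adjusted p = 0.0083). HHLA2 was not tested in either line, and its counts went from 22, 18 and 10 to 4, 2 and 4 in CAL27 cells and from 0, 2 and 0 to 0, 0 and 24 in HSC3 cells. The CAL27 groups did not overlap. The 24 counts of the HSC3 library are about 2.1 molecules.

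In the interaction across lines, 3 of the 8 genes were called, TNFRSF14 and VTCN1 with a more positive response in HSC3 cells and CD276 with a less positive one, whereas 20.6% of all genes were called in either direction (8.25% more positive and 12.3% less). Past a fold of 2 the call of TNFRSF14 held, against 2.19% of all genes more positive and 3.02% less. VTCN1 was also called past that fold, but its difference contains the HSC3 change for which no fold is given. Its HSC3 arm holds about 3.1 molecules or fewer in a library, so its call is not read as a result.

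The genes whose profile was most like that of each member were found by the root mean square difference of centred values, over 12 libraries in both lines. The values were log2 of CPM + 0.5. CD274 was nearest to AQP11, RALGAPA1 and FAM160B1 (differences of 0.0739 to 0.0795) and PDCD1LG2 to GCNT4, RBMS2 and RBKS (0.125 to 0.139). The gene nearest to IDO1 over the 6 CAL27 libraries was HLA-DRB1, an MHC class II gene of a family whose near-identical members can share reads, with a log2 fold change of -1.78 there (difference 0.0728), followed by YPEL2 and TMEM229B. TNFRSF14 was nearest to GRAMD1B, RNF128 and ACSS1 (0.160 to 0.182) and VTCN1 to NRARP, CCL20 and BCL11A (0.156 to 0.168). In HSC3 cells VTCN1 had means of 0.0197 CPM with vehicle and 0.164 CPM with DOX. Both lie below the 0.5 CPM added, which largely sets the HSC3 part of that match. CD47 was nearest to KDM7A, KLHL9 and PMAIP1, and CD276 to DHX15, CNOT9 and PSMB2. These are descriptions over libraries that share their vehicle means.

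Among 28 other surface ligands, 25 were tested in CAL27 cells, where 13 fell and 6 rose (background of 21.8% and 22.6% of all genes), and 23 in HSC3 cells, where 5 fell and 3 rose (background of 15.4% and 13.0%). The HSC3 counts are near that background. The number that fell in HSC3 cells was 3 without vehicle replicate 1, 8 without DOX replicate 1 or 2, and 10 in the fit of 12 libraries. LGALS9 (galectin-9, a TIM-3 ligand) and CEACAM1 fell in CAL27 cells, by 1.46 and 1.43 on the log2 scale (edgeR adjusted p = 4.3e-09 and 0.00035), while in HSC3 cells their log2 fold changes were -0.05 and 0.02 and not called. The costimulatory ligands TNFSF18 (GITRL) and TNFSF4 (OX40L) rose in both lines. TNFSF18 rose from 1.91 ± 0.441 to 11.7 ± 2.99 CPM in HSC3 cells (SD, n = 3; log2 fold change 2.60, edgeR adjusted p = 1.1e-05) and by 0.57 in CAL27 cells (edgeR adjusted p = 0.021). TNFSF4 rose from 0.969 ± 0.130 to 2.96 ± 0.341 CPM in HSC3 cells (SD, n = 3; log2 fold change 1.61, edgeR adjusted p = 0.00033).

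**Figure D5:**
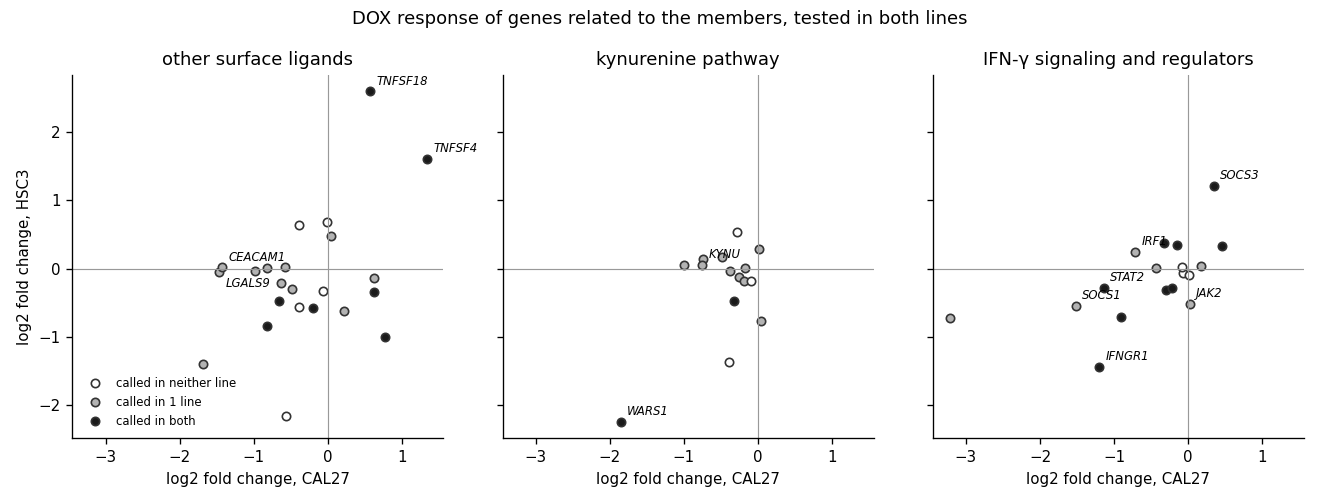
Log2 fold change with DOX in CAL27 cells (horizontal) and HSC3 cells (vertical) for other surface ligands, kynurenine pathway genes and IFN-γ signaling genes that were tested in both lines, shaded by whether they were called at an adjusted p under 0.05. WARS1 and IFNGR1 are lower in both lines, and TNFSF18 and TNFSF4 higher in both.

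Receptors of these ligands were mostly near 0, as of 14 listed 5 passed the filter in CAL27 cells and 7 in HSC3 cells. PDCD1, which encodes PD-1, had at most 6 counts in a library, TMIGD2 at most 4, KIR3DL3 0 and BTLA at most 25. CD160 was higher, with means of 1.15 (vehicle) and 1.58 CPM (DOX) in CAL27 cells. In HSC3 cells CD160 was at 0.475 and 0.791 CPM, and it was not called in either line. SIRPA, the CD47 receptor, was the one with a sizeable level. It fell from 42.2 ± 2.45 to 31.1 ± 0.541 CPM in CAL27 cells (log2 fold change -0.44, edgeR adjusted p = 4.0e-07) and from 49.4 ± 2.67 to 16.7 ± 2.00 CPM in HSC3 cells (SD, n = 3 each; log2 fold change -1.57, edgeR adjusted p = 1.6e-06), and the response differed by -1.13 (edgeR adjusted p = 6.7e-06). Of 12 genes that handle PD-L1 or CD47 protein, 2 fell and 3 rose in CAL27 cells and 1 fell and 3 rose in HSC3 cells, and with a library left out 0 to 2 fell and 1 to 5 rose over both lines. Of all genes, 21.8% fell and 22.6% rose in the first line, and 15.4% and 13.0% in the second. CMTM6, which keeps PD-L1 from degradation, had log2 fold changes of -0.04 and -0.10 (edgeR adjusted p = 0.64 and 0.40), and QPCTL, which modifies CD47 for SIRPα binding, -0.02 and -0.40 (edgeR adjusted p = 0.85 and 0.16).

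Around IDO1, 17 of 22 genes of tryptophan supply, kynurenine metabolism and the aryl hydrocarbon receptor were tested in CAL27 cells, of which 11 fell and 0 rose (21.8% and 22.6% of all genes), and 16 in HSC3 cells, of which 4 fell and 1 rose (15.4% and 13.0% of all genes). In CAL27 cells none rose at an unadjusted p under 0.05 either, and the count that rose there was 0 in each of the 13 alternatives run, DESeq2 included. The genes that convert tryptophan as IDO1 does, IDO2 and TDO2, had at most 4 counts in any library. WARS1, which charges tRNA with tryptophan, fell from 232 ± 7.30 to 64.2 ± 3.89 CPM in CAL27 cells and from 519 ± 15.1 to 110 ± 0.364 CPM in HSC3 cells (SD, n = 3 each), log2 fold changes of -1.85 and -2.24 (edgeR adjusted p = 1.0e-16 and 1.4e-08). It thus fell in HSC3 cells, where IDO1 was near 0 throughout. KYNU, which cleaves kynurenine, fell by 0.76 in CAL27 cells (edgeR adjusted p = 7.5e-07) but had a log2 fold change of 0.06 in HSC3 cells (edgeR adjusted p = 0.59), and the interaction was 0.82 (edgeR adjusted p = 2.1e-05).

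Of 18 genes of IFN-γ signaling and other factors that act on CD274, all tested in both lines, 11 fell and 3 rose in CAL27 cells (21.8% and 22.6% of all genes). Those that fell there include a gene with at most 30 counts in a CAL27 library. In HSC3 cells 6 fell and 4 rose (15.4% and 13.0% of all genes), and 3 fell without vehicle replicate 1. IFNGR1, a chain of the IFN-γ receptor, fell from 81.6 ± 2.58 to 35.6 ± 2.44 CPM in CAL27 cells and from 75.8 ± 4.43 to 28.1 ± 4.64 CPM in HSC3 cells (SD, n = 3 each; log2 fold changes -1.20 and -1.44, edgeR adjusted p = 8.8e-14 and 4.5e-06). CD274 was higher in the DOX groups, in which transcripts of this receptor chain were lower, and a link between them was not tested. IRF1, the factor through which IFN-γ acts on CD274, fell in CAL27 cells (log2 fold change -0.72, edgeR adjusted p = 3.6e-06) and had a log2 fold change of 0.24 in HSC3 cells (edgeR adjusted p = 0.28), a difference of 0.96 (edgeR adjusted p = 0.0014). STAT2 and SOCS1, a feedback inhibitor, fell by 1.14 and 1.52 on the log2 scale in CAL27 cells (edgeR adjusted p = 8.9e-15 and 3.1e-06). In HSC3 cells their log2 fold changes were -0.29 and -0.54 (edgeR adjusted p = 0.0175 and 0.508). SOCS3, another inhibitor, rose in HSC3 cells (log2 fold change 1.21, edgeR adjusted p = 2.4e-06) and less in CAL27 cells (log2 fold change 0.35, edgeR adjusted p = 0.00025).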

How the data were processed

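RNA-seq was performed on 12 libraries from separate cultures (TRIzol, TruSeq Stranded mRNA). The submitters' notes name STAR 2.7.9a, Subread 2.0.1 with featureCounts, FastQC 0.11.9 and GRCh38, and the annotation, strand setting and handling of duplicates are not given in the sources used here. The authors deposited whole-number counts for each symbol, not normalized. In R 4.3.3, the lines were fitted separately with edgeR 4.0.16 (TMM, filterByExpr with minima of 10 and 15, robust glmQLFit, glmQLFTest), and the interaction and baseline with 1 fit of 12 libraries with 4 group means. A call required p under 0.05 after Benjamini-Hochberg adjustment across every gene tested. SE are the log2 fold change over the square root of F, and 95% intervals use the degrees of freedom of the test. DESeq2 1.42.0 was an alternative.

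The floor was 3 counts. Counts per molecule were estimated from zeros among genes with an expected count of 8 to 16, and simulated libraries with 3, 6 and 12 gave 3.58, 7.38 and 14.2. Replicate pairs differed by more than counting noise (chi-square per degree of freedom 7.27 to 132). On simulated counts, 200 and 199 of 200 genes changed by 1.5 (log2) were recovered in CAL27 and HSC3 cells. The changes were planted only in well-counted genes, with a fixed spread not taken from these libraries. That recovery therefore does not extend to genes with few counts or to the spread between these replicates. The CAL27 DOX columns are numbered 4 to 6 and were used without replicate numbers. Lengths and positions are from GENCODE v44, in which 38934 of 39368 symbols matched. The members and lists were chosen with earlier results of these data known. Named list genes by rule were those with the largest called changes over 2-fold at 1 CPM or more (at most 3 per direction, list and line) and those in direct relation to a member, of which 1 is not reported here.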

Additional observations from a re-analysis of the deposited data

Results flagged for a closer look

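For 3 genes the response to DOX differed between the lines by the test of the interaction (edgeR over 12 libraries). CD276 responded less in HSC3 cells by 0.35 on the log2 scale (a difference of -0.35, adjusted p = 0.0083, and from -0.39 to -0.30 over 17 alternatives). VTCN1 differed by 4.54 (adjusted p = 8.9e-05, and from 3.91 to 5.41 over the alternatives), where the HSC3 arm holds about 3.1 molecules or fewer in a library. TNFRSF14 differed by 2.02 (adjusted p = 0.00030, and from 1.77 to 2.28).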

How the results depend on the processing

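Over 26 results for single genes, 389 comparisons with an alternative were made, and 373 kept their direction and side of the threshold, 1 lost its call, 6 gained one and 9 changed sign. The changes of sign were in results that were not called. The interaction of PDCD1LG2 was 0.0045 with counts divided by counts per molecule and -0.1533 to 0.0908 with a library left out, and the baseline difference of CD276 was -0.15 with library totals, which moved the median of all genes by -0.27. The call lost was CD274 in CAL27 cells without vehicle replicate 2, as given above. With a fold change over 2 as well, 2 members were lower and 1 higher in CAL27 cells, and 0 were less positive in the interaction. In HSC3 cells 1 member was lower with library totals (CD47) and 1 in the fit of 12 libraries (IDO1, at 0 in all DOX libraries, so that no fold is given). Leaving out each library gave 0 to 1 lower in HSC3 cells, 4 to 5 lower and 2 to 3 higher in CAL27 cells, and 1 to 2 less positive in the interaction, the 2 without HSC3 vehicle replicate 3. VTCN1 in HSC3 cells was called higher only in the fit of 12 libraries.

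With the replicate block in HSC3 cells, 0 members were lower and 3 higher, and 2523 genes were lower and 1955 higher against 2782 and 2342 without it. Same-numbered HSC3 libraries did not deviate together (correlations of -0.0853, 0.0907 and -0.0808), so they share only a number. No paired analysis was possible in CAL27 cells because the DOX columns carry no matching numbers. The 12-library fit called 2337 genes lower and 2746 higher in CAL27 cells, against 4203 and 4351. In HSC3 cells 1514 genes were higher without vehicle replicate 2, and in the interaction 2614 were more positive without DOX replicate 1 against 1708. Counts under about 10 in HSC3 cells are near 1 molecule, which limits IDO1, VTCN1 and HHLA2.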

Other observations

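THBS1, which encodes the matrix protein thrombospondin-1, a ligand of CD47, was looked up after the data had been seen and lies outside the lists. It rose from 1690 ± 109 to 4110 ± 137 CPM in CAL27 cells (SD, n = 3 each; log2 fold change 1.28, edgeR adjusted p = 6.8e-14) and from 1570 ± 109 to 3550 ± 20.4 CPM in HSC3 cells (SD, n = 3 each; log2 fold change 1.18, edgeR adjusted p = 4.9e-07). SIRPA fell in both lines, and CD47 fell in CAL27 cells and was not called in HSC3 cells.

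CD24, a ligand of Siglec-10 that like CD47 restrains phagocytosis, and PVR, the ligand of TIGIT and CD226, were also singled out after their values were seen, and CD24 has near-identical pseudogene copies that may share its reads. CD24 rose in CAL27 cells from 59.3 ± 3.94 to 101 ± 6.39 CPM and fell in HSC3 cells from 140 ± 8.19 to 70.5 ± 9.98 CPM (SD, n = 3 each), a difference between the responses of -1.76 (edgeR adjusted p = 2.3e-07). PVR rose in CAL27 cells (log2 fold change 0.63, edgeR adjusted p = 1.1e-09) and fell in HSC3 cells (log2 fold change -0.34, edgeR adjusted p = 0.0076), a difference of -0.97 (edgeR adjusted p = 3.7e-06).

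Near other members, MYH15, a myosin gene that starts 233 kb from HHLA2 and 437 kb from CD47, rose in CAL27 cells (log2 fold change 1.22) and fell in HSC3 cells (-2.04; edgeR adjusted p = 0.0019 and 0.0015). PLCH2, 130 kb from TNFRSF14, fell in both lines (log2 fold changes -0.79 in CAL27 cells and -2.17 in HSC3 cells, edgeR adjusted p = 0.011 and 0.00013), whereas TNFRSF14 fell in CAL27 cells and rose in HSC3 cells.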
